A study of Mus musculus with 12 samples.

Results

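Neutrophils of Rab27a knockout mice were compared with those of wild-type mice after 6 h with CpG-B, in 3 libraries of each genotype among the 12 libraries of the study. The cells were Ly6G-positive neutrophils of the bone marrow, selected with magnetic beads, and both genotypes carry the strain label C57BL/6. CpG-B (ODN 1826) was given at 5 µM at 37C in RPMI without phenol red, and the other 6 libraries came from cells of both genotypes kept for 6 h without it, called vehicle in one label and untreated in another. The sources used here give neither the Rab27a allele nor the sex, age and number of the mice nor the strandedness of the libraries. The p-values therefore measure only how far these libraries spread, which may be technical.

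A gene was called changed at an adjusted p of at most 0.05 in edgeR's quasi-likelihood test, fitted to all 12 libraries and adjusted by Benjamini-Hochberg over 10802 genes. Levels are CPM, counts scaled to a common library size and not per gene length, so that they compare libraries and not genes. The genes described here are those of the CpG response whose level with CpG differed between the genotypes. The CpG response was read as CpG against no CpG averaged over both genotypes, a contrast that gives each genotype the same weight and so does not choose genes by which genotype was higher. It held 1867 genes (17.3% of those tested), 1102 higher with CpG (10.2%) and 765 lower (7.08%). Of the 1867, 132 differed between knockout and wild-type with CpG.

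CpG-B is a synthetic DNA with unmethylated CpG motifs that is taken up into endosomes and binds TLR9, a receptor that signals through MyD88 to NF-kB and to interferon regulatory factors. NF-kB turns on inflammatory genes together with the genes of its own inhibitors, among them Nfkbia, Nfkbie and Tnip1, which limit the signal. Rab27a is a small GTPase that docks secretory organelles at the plasma membrane, and in neutrophils it is known for the release of azurophilic granules. A separate programme, driven by the transcription factor NRF2, keeps up antioxidant and haem-degrading enzymes such as Hmox1, Nqo1, Prdx1 and Gclm.

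Promoters are shown for genes that the comparison turns on, chosen because they hold a match to a motif of one of these programmes in the 250 bases before the annotated start. They come from RefSeq on GRCm38.p6, an earlier build than that of the counts, and each stretch ends at the base before the start and reads 5′ to 3′ on the strand of its gene. The first 4 are NF-kB pathway genes that were higher in the knockout with CpG, and capitals mark matches to the NF-kB consensus. In Tnip1 and in the first block of Nfkb2 these are overlapping matches.
Tnip1 (chr11:54962941-54963050, minus strand): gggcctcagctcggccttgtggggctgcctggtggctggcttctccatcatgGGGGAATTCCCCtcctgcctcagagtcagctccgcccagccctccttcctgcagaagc
Nfkb2 (chr19:46304627-46304736, plus strand): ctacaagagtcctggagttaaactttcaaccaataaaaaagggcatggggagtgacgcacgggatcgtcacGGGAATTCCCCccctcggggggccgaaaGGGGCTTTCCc
Nfkbie (chr17:45555570-45555699, plus strand): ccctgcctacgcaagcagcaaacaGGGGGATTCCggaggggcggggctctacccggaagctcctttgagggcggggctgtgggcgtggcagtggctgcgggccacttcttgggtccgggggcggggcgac
Sod2 (chr17:13007729-13007838, plus strand): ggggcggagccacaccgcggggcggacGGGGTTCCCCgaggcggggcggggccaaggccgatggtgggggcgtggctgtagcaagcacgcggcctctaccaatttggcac
Gbp5, an interferon-inducible GTPase gene that was also higher, holds a match to the core of the interferon-stimulated response element (GAAA, 2 bases of any kind, GAAA), read on the other strand, and a match to the NF-kB consensus, both in capitals.
Gbp5 (chr3:142496744-142496933, plus strand): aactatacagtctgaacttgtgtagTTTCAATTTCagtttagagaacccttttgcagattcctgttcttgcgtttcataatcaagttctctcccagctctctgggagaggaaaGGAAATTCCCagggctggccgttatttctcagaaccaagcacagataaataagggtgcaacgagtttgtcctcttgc
The last 2 are genes of the peroxide and glutathione defence that were lower in the knockout, with a match to TGACNNNGC, the core of the antioxidant response element, read on the other strand and in capitals. Prdx1 also holds a match to the NF-kB consensus, which is left in lower case.
Prdx1 (chr4:116685419-116685598, plus strand): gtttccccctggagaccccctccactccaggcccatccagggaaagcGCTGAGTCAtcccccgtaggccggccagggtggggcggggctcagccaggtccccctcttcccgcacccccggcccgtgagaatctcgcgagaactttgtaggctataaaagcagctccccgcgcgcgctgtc
Gclm (chr3:122245377-122245556, plus strand): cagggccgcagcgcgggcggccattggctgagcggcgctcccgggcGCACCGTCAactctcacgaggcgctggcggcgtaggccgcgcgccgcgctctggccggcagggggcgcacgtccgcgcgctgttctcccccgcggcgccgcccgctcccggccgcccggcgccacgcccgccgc

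Both strands were searched in the 8755 tested genes with a RefSeq promoter. The NF-kB consensus was present in 10.6% of all promoters and in 17.7% of those of the CpG-induced genes. Among CpG-induced genes that were higher in the knockout it was present in 13 of 50, and among CpG-induced genes that were lower in 3 of 20. Of the 5 NF-kB pathway genes called higher, Nfkb2, Nfkbie, Sod2 and Tnip1 held a match in this window. Over the whole NF-kB pathway list, called or not, 10 of 24 promoters held one. The interferon-stimulated element was present in 3.47% of all promoters, in 8.22% of those of the CpG-induced genes in 5 of the 50 induced genes that were higher in the knockout and in 2 of the 20 that were lower. TGACNNNGC was present in 14.1% of all promoters, in 15.4% of those of the CpG-induced genes, in 5 of the 20 induced genes that were lower and in 6 of the 50 that were higher. Among the repressed genes it was present in 2 of 23 that were lower and 2 of 16 that were higher, and the NF-kB consensus in 2 of 23 and 0 of 16. A match is a run of letters and not a measured binding site, and the motifs were searched separately, so that their matches can overlap.

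The label of the knockout was first checked on Rab27a itself. It stood at 207, 216 and 285 CPM in the wild-type libraries with CpG and at 114, 113 and 96.1 CPM in the knockout libraries. Every knockout library was below every wild-type library, and the difference was 2.2-fold (log2 -1.14, SE 0.17; edgeR adjusted p = 0.00112). Which exons the allele removes is not known here, and the counts sum all transcripts of the gene.

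The 6 CpG libraries held 11847329 to 15513279 counts. Knockout libraries 1 and 3 lay at the 2 ends for erythroid and B-lineage markers, with and without CpG. The erythroid sum of knockout library 2 was below the wild-type range too, with and without CpG. Summed erythroid markers, 13 genes, were at 4463 to 5361 CPM in wild-type cells with CpG and at 543, 1761 and 6378 CPM in knockout libraries 1, 2 and 3, and 16 B-lineage markers were at 50.6 to 58.5 CPM against 13.1, 48.3 and 144 CPM. Summed mature neutrophil markers were at 67493 to 82885 CPM in wild-type and at 82616, 48805 and 65213 CPM in knockout cells, with none of 16 called and Ly6g, the selected antigen, at 137 to 170 against 112 to 197 CPM. Among the erythroid genes Hbb-bt, a haemoglobin gene, was called lower, and none of the B-lineage genes was called. Of 21 monocyte and macrophage markers 1 was called, Csf1r, higher in the knockout, and the sums were 7964 to 8709 CPM against 7727 to 11422 CPM. The T and NK sum, 85.4 to 156 CPM in the knockout against 13.2 to 14.5 CPM, rested on Cd3d, the 1 called gene among 7 tested. Of all these markers only Cd209a, a dendritic cell marker, was at 0 in all CpG libraries. Fewer cells of a type and less RNA per cell cannot be told apart in these bulk samples.

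**Figure D1:**
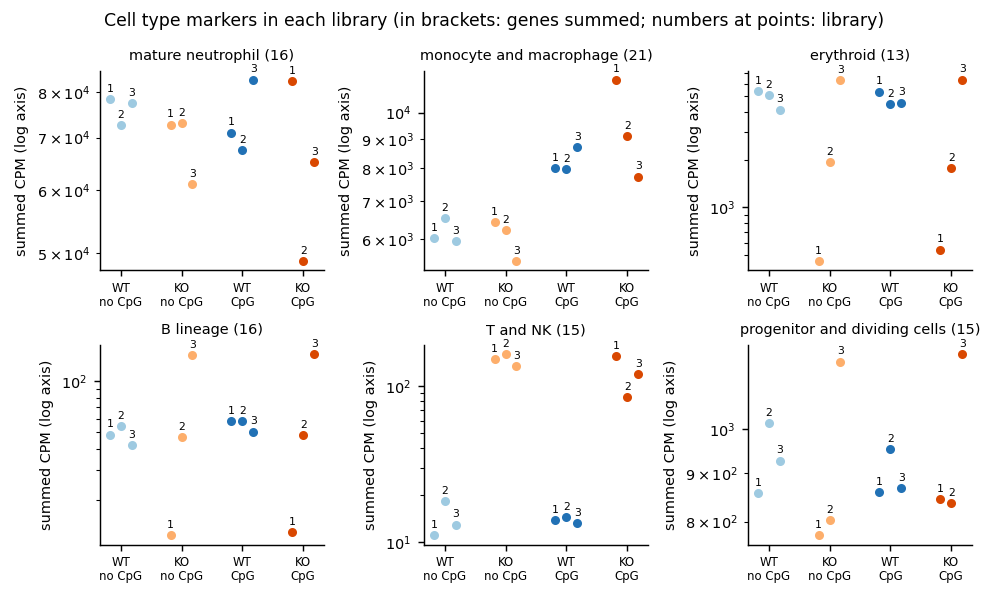
Summed level of cell type markers in each library, in CPM on log axes, with the number of genes summed in brackets and the library number at each point. Knockout (KO) libraries 1 and 3 lie at the 2 ends for erythroid and B-lineage markers with and without CpG, outside the range of the wild-type (WT) libraries. Knockout library 2 lies between them, below the wild-type range for erythroid markers.

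In CpG-treated neutrophils a part of the CpG-induced genes was higher in the knockout, among them NF-kB feedback genes and Il12b. Other induced genes were lower, among them Prdx1, Hmox1 and Nqo1. Loss of Rab27a and any other difference between the knockout and wild-type mice cannot be told apart in this comparison. Of 10802 genes, 423 differed (3.92%), 184 of them higher (1.7%) and 239 lower (2.21%) in the knockout. Among the 1102 CpG-induced genes 62 were higher (5.63%) and 25 lower (2.27%), and among the 765 CpG-repressed genes 21 were higher and 24 lower. The share called higher among the induced genes was thus above that of all genes, and the share called lower was near it. With scaling by library size alone the split over all genes was 155 higher and 314 lower, against 184 and 239, and with DESeq2 419 and 315. Over the 132 response genes it was 83 higher and 49 lower, against 72 and 82 with library size alone, where 61 repressed genes were lower in place of 24.

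The median difference was larger over genes that CpG induced more strongly. This median difference with CpG was a log2 of 0.21 over all 1102 induced genes, 0.33 over the 470 induced at least 2-fold and 0.47 over the 159 induced at least 4-fold, where 15 were called higher and 1 lower. Without CpG the medians of the same sets were -0.02, -0.05 and -0.07. Those unstimulated levels come from other libraries than the levels with CpG, but the 12 libraries share 1 estimate of the spread, and the unstimulated ones also enter the choice of the induced genes. Over the CpG-repressed genes the median with CpG was -0.03, and over all genes tested -0.00094. Genes at the threshold were St3gal1 (log2 0.44, edgeR adjusted p = 0.0497) just inside and Ptprj (log2 0.43, edgeR adjusted p = 0.0543) just outside.

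**Figure D2:**
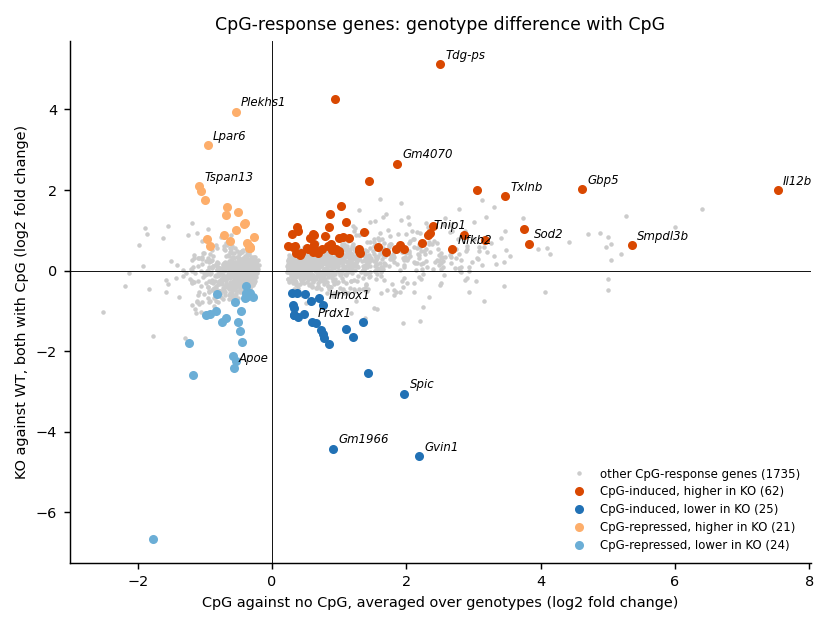
Log2 fold change of knockout against wild-type, both with CpG, plotted against the log2 fold change of CpG averaged over genotypes, for the 1867 CpG-response genes. Coloured points are the 132 genes that differed between genotypes. Of those induced at least 2-fold, 32 lie above 0, such as Il12b, Gbp5 and Sod2. The 6 that lie below 0 include Gvin1 and Spic.

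These counts depend on single libraries. Without wild-type CpG library 1 the 423 calls became 234 and the 132 response genes 48, with 17 induced genes higher and 13 lower. Without knockout CpG library 3 they became 699 and 221, with 133 induced genes higher and 21 lower, and without knockout library 3 of both treatments 824 and 230, with 131 and 19. Without knockout CpG library 2 the response genes numbered 87, and without unstimulated knockout library 2 they numbered 84. Of the 132 genes, 54 kept their call in every 1 of the 12 fits that left out a library. Of the 62 induced genes that were higher 17 did so, and of the 25 that were lower 17.

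NF-kB pathway and feedback genes were a group with a larger share called than all genes. Of 30 tested, 5 rose and none fell (16.7% called, against 3.92% of all genes), the median log2 difference was 0.37, and 27 had a positive estimate. The 3 knockout libraries lay above the 3 wild-type ones for 18 of the 30 genes and below them for 1, against 10.3% and 10% of all genes (20.4% in either direction). Of the 30 genes 26 were CpG-induced. Among all 1102 CpG-induced genes 7.89% were called, and their median log2 difference was 0.21. The knockout libraries lay above the wild-type ones for 298 of these 1102 genes and below them for 63. Without CpG the median of the NF-kB list was 0.10, none of the 30 was called higher and 1, Relb, was called lower. The count of rises was 2 without wild-type CpG library 1 or in a fit of the 6 libraries alone, 3 without wild-type CpG library 3 or knockout CpG library 2, 9 without knockout CpG library 3, 10 without both knockout libraries 3 and 12 with DESeq2. One gene was called lower, beside 4 higher, with library size scaling and, beside 8 higher, with replicate number as a block.

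Tnip1 encodes a ubiquitin-binding partner of A20 that restrains NF-kB. It was at 565, 598 and 594 CPM in wild-type cells with CpG and at 1064, 1342 and 857 CPM in the knockout. The groups did not overlap, knockout library 2 was the highest, and the difference was 1.86-fold (log2 0.89, SE 0.15; edgeR adjusted p = 0.00235). In cells without CpG the levels were 135 to 172 CPM and 165 to 170 CPM (log2 0.15; edgeR adjusted p = 0.69).

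Sod2, an NF-kB target that encodes the superoxide dismutase of mitochondria, was at 277, 330 and 253 CPM in wild-type and at 468, 426 and 473 CPM in knockout cells with CpG. All 3 knockout libraries were above all wild-type libraries, by 1.59-fold (log2 0.67, SE 0.12; edgeR adjusted p = 0.00432). Nfkbie, an inhibitor of the NF-kB dimers, was at 71.9, 108 and 65.2 CPM against 115, 160 and 141 CPM (log2 0.77, SE 0.18; edgeR adjusted p = 0.0256). Nfkb2, which encodes the precursor of p52, was at 390, 459 and 395 CPM against 563, 695 and 535 CPM (log2 0.53, SE 0.12; edgeR adjusted p = 0.0259). In both of these genes library 2 was the highest of its group, and the calls were lost without wild-type CpG library 1 (edgeR adjusted p = 0.149 for Nfkbie and 0.16 for Nfkb2), wild-type CpG library 3 or knockout CpG library 2. Cflar, which encodes an inhibitor of caspase-8 at death receptors, had a log2 difference of 0.52 (SE 0.11; edgeR adjusted p = 0.0122, and 0.0865 without wild-type CpG library 1).

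Nfkbia, the inhibitor that ends the NF-kB signal, was at 536, 567 and 573 CPM in wild-type and at 701, 880 and 650 CPM in knockout cells with CpG. The groups did not overlap, but the gene did not pass the test (log2 0.41, SE 0.11; edgeR adjusted p = 0.0639), and it was called with relative log expression scaling, a filter of 1 CPM, DESeq2, or without knockout CpG library 3 or both knockout libraries 3. Icam1, an adhesion molecule gene driven by NF-kB, was at 153, 217 and 120 against 250, 297 and 226 CPM (log2 0.66, SE 0.19; edgeR adjusted p = 0.0822). It was called without a filter, with replicate number as a block, in DESeq2 and without wild-type CpG library 2. Rel, Rela, Relb and Nfkb1, the other subunits of NF-kB, had log2 differences of 0.22, 0.40, -0.01 and 0.33, none called.

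Across the libraries of a genotype the NF-kB genes moved together. Knockout library 2 was the highest of the 3 knockout libraries with CpG for 21 of the 30 genes, and wild-type library 2 was the highest wild-type library for 22. That knockout library had the lowest sum of neutrophil markers among the 6. Its sums of erythroid and B-lineage markers were intermediate among the 3 knockout libraries and below those of all wild-type libraries with CpG. The part of these marker levels in the difference was not tested.

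**Figure D3:**
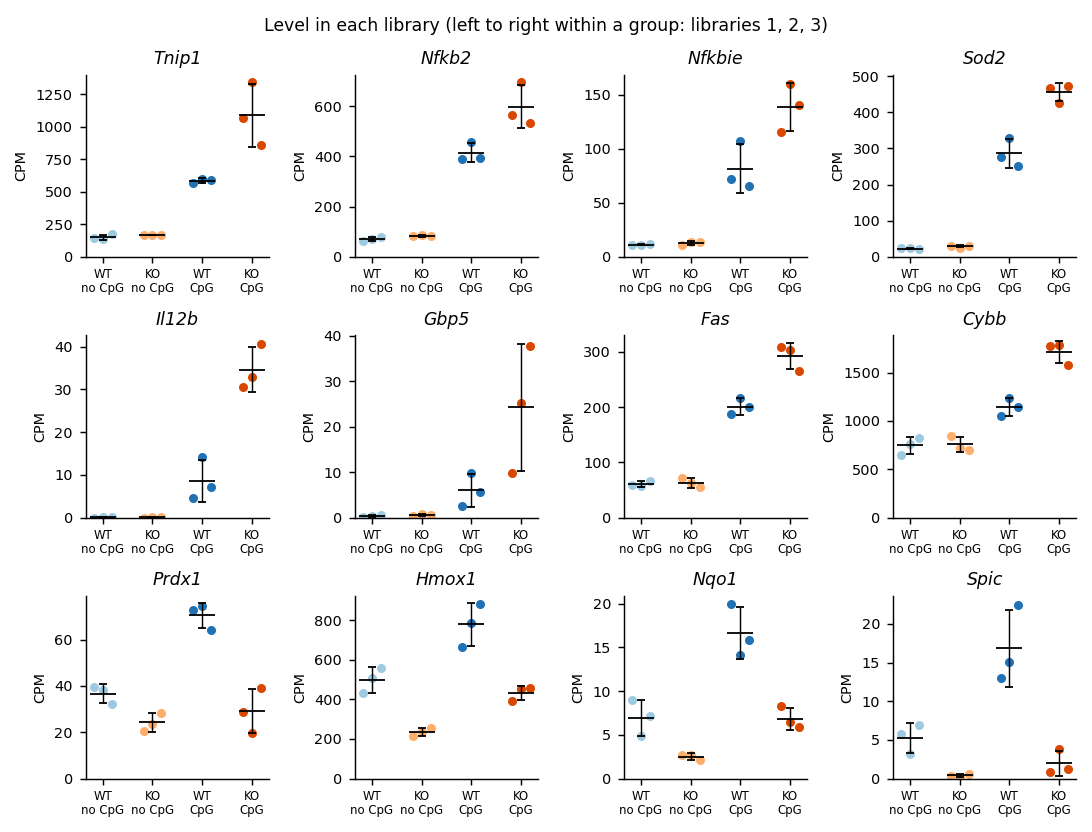
Level of 12 genes in each library, in CPM, with the mean and SD of the 3 libraries of a group. With CpG the knockout points of Tnip1, Sod2, Nfkb2, Nfkbie, Il12b, Gbp5, Fas and Cybb lie above the wild-type points, and those of Prdx1, Hmox1, Nqo1 and Spic lie below them.

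Cytokine genes gave 2 rises and no falls among 25 (8% called, against 3.92% of all genes). Their median log2 difference was 0.28, against 0.31 without CpG. Il12b encodes the p40 subunit shared by IL-12 and IL-23. It was at 4.58, 14.1 and 7.17 CPM in wild-type and at 30.4, 32.8 and 40.6 CPM in knockout cells with CpG. The lowest knockout library was above the highest wild-type library by more than the spread within either group, and the difference was 4-fold (log2 2.00, SE 0.33; edgeR adjusted p = 0.00252). Without CpG Il12b was at 0.168 CPM or less in every library, too low to compare the genotypes.

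Il18, which encodes an inflammasome-processed cytokine, was not a gene of the CpG response and was at 4.5, 3.67 and 8.38 CPM in wild-type against 13.4, 17.2 and 16.1 CPM in knockout cells with CpG (log2 1.51, SE 0.27; edgeR adjusted p = 0.00492). It also differed without CpG (log2 2.45). Tnf, a main early cytokine of NF-kB, was at 118, 138 and 147 CPM against 164, 175 and 161 CPM, with no overlap but without passing the test (log2 0.31, SE 0.11; edgeR adjusted p = 0.142). Il1b was at 829, 1188 and 801 against 1279, 1240 and 1382 CPM (log2 0.47, SE 0.20; edgeR adjusted p = 0.227). Without CpG it was called higher in the knockout (log2 0.85; edgeR adjusted p = 0.0253). Il6 and the anti-inflammatory Il10 overlapped between the genotypes, with log2 differences of 0.78 (SE 0.49) and -0.22 (SE 0.35).

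None of 12 chemokine genes was called, beside 3.92% of all genes. Their median log2 difference was 0.04, against 0.49 without CpG. Cxcl2, a neutrophil attractant, was at 75.9, 84.5 and 78.2 CPM in wild-type and at 52.2, 62.5 and 62.9 CPM in knockout cells with CpG. It was lower in all 3 knockout libraries but did not pass (log2 -0.42, SE 0.14; edgeR adjusted p = 0.132). Without CpG it was higher in all 3 knockout libraries, also without passing (log2 0.54; edgeR adjusted p = 0.0624). Cxcl10, an interferon-inducible chemokine, was at 15.9, 65.8 and 36.8 CPM against 55.1, 112 and 175 CPM (log2 1.53, SE 0.43; edgeR adjusted p = 0.0714), and was called without a filter, with replicate number as a block or without wild-type CpG library 2, knockout CpG library 1 or both knockout libraries 1. Ccl3 was at 54.9 to 62.2 CPM against 44.8 to 77.3 CPM (log2 0.03, SE 0.17), a difference whose sign turned in 5 alternatives. Without CpG it was called higher in the knockout (log2 0.88; edgeR adjusted p = 0.0125).

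Interferon-stimulated genes had a median log2 difference of 0.56 with CpG, with 47 of 49 estimates positive, and a median of -0.13 without CpG. With all libraries this was the highest median of the 21 function lists. It was 0.40 without wild-type CpG library 1 and 0.93 without wild-type CpG library 3. It was below that of the NF-kB list without wild-type CpG library 2 (0.421 against 0.441), without knockout CpG library 3 (0.422 against 0.425) and without both knockout libraries 3 (0.418 against 0.422). Only 2 were called, both higher (4.08% of the list, near the 3.92% of all genes), and the genotypes overlapped in 42 of the 49 genes. The knockout libraries lay above the wild-type ones for 6 and below them for 1, against 10.3% and 10% of all genes. The libraries of a genotype differed widely in these genes: wild-type library 3 was the highest wild-type library with CpG for 45 of the 49, knockout library 3 the highest knockout library for 37, and knockout library 1 the lowest for 44. No gene of the list was called without wild-type CpG library 1, without knockout CpG library 2 or 3, or without both knockout libraries 3, and 8 were called without both knockout libraries 1. With library size scaling none was called, with DESeq2 6 were.

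The called genes of this list were Gbp5 and Parp14. Gbp5, whose product acts in inflammasome assembly and cell-autonomous immunity, was at 2.55, 9.79 and 5.62 CPM in wild-type and at 9.86, 25.3 and 37.7 CPM in knockout cells with CpG (log2 2.02, SE 0.48; edgeR adjusted p = 0.0323). The highest wild-type and the lowest knockout library were at 9.79 and 9.86 CPM. Its edgeR adjusted p was 0.141 without wild-type CpG library 1, with the call also lost without wild-type CpG library 3, knockout CpG library 2 or knockout CpG library 3. Parp14, a mono-ADP-ribosyltransferase gene, was at 225, 268 and 345 against 360, 584 and 650 CPM (log2 0.93, SE 0.24; edgeR adjusted p = 0.0479). The Parp14 call was lost in 8 of 12 fits that left out 1 library, with an edgeR adjusted p of up to 0.236 without wild-type CpG library 1. Ifit1 and Irf7, an antiviral effector and a regulator of interferon genes, were not called, at log2 0.98 (SE 0.46) and 0.66 (SE 0.26).

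**Figure D4:**
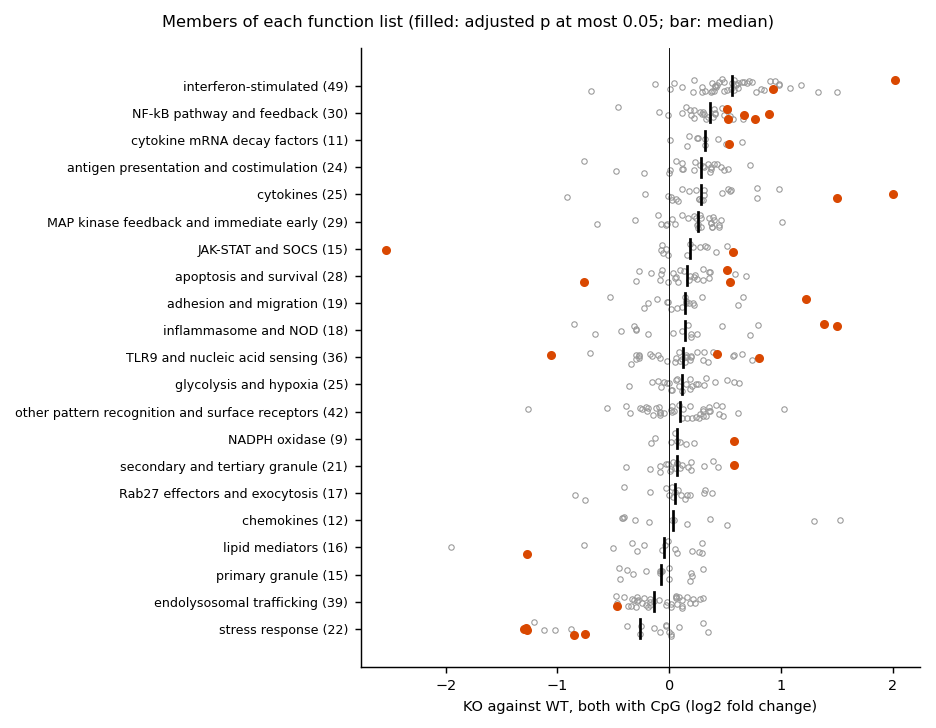
Log2 fold change of knockout against wild-type, both with CpG, for each tested member of the 21 function lists, with the number tested in brackets, filled points for genes called at an adjusted p of at most 0.05 and bars for list medians. With all libraries the interferon and NF-kB lists have the highest medians, 0.56 and 0.37, and the stress response list the lowest, -0.26.

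Among 36 genes of TLR9 signalling and nucleic acid sensing 2 rose and 1 fell (8.33% called, against 3.92% of all genes). Their median log2 difference was 0.13. Tlr9 itself was at 8.48, 8.87 and 9.68 CPM in wild-type and at 8.72, 11.2 and 10.1 CPM in knockout cells with CpG, with the groups overlapping (log2 0.15, SE 0.21; edgeR adjusted p = 0.766). Unc93b1, which escorts TLR9 to endosomes, was at 180 to 182 CPM against 165 to 227 CPM (log2 0.14, SE 0.11). The signalling genes Myd88 and Irak4 had log2 differences of 0.25 and 0.19 and were not called.

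Irf5, a transcription factor gene that acts below TLR9, was at 51.2, 61.7 and 54.4 CPM in wild-type and at 75.9, 83 and 66.8 CPM in knockout cells with CpG (log2 0.43, SE 0.11; edgeR adjusted p = 0.0408). Without CpG it was at 24.4 to 27.5 CPM in wild-type and 25.5 to 27 CPM in knockout cells. Cgas, the cytosolic DNA sensor, was at 9.83, 15 and 13.8 CPM against 16.4, 27.9 and 23.1 CPM (log2 0.80, SE 0.20; edgeR adjusted p = 0.0383). Both calls were lost in 7 of 12 fits that left out 1 library, with edgeR adjusted p of up to 0.236 for Irf5 and 0.204 for Cgas without wild-type CpG library 1. Pld3, a lysosomal exonuclease that degrades single-stranded DNA and so limits TLR9 ligands, was the gene that fell: it was at 36.6, 29.6 and 41.2 CPM against 17.4, 16.9 and 17.2 CPM (log2 -1.06, SE 0.20; edgeR adjusted p = 0.00762). It was not a CpG-response gene and was also lower without CpG (log2 -0.98).

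Several further genes of signalling and effector functions were induced by CpG and higher in the knockout. Pim1, a survival kinase gene, was at 191, 228 and 205 CPM in wild-type against 262, 361 and 308 CPM in knockout cells with CpG (log2 0.57, SE 0.12; edgeR adjusted p = 0.0162). N4bp1, whose product restrains cytokine mRNAs, was at 620, 706 and 610 against 908, 1066 and 839 CPM (log2 0.54, SE 0.12; edgeR adjusted p = 0.0214). Both calls were lost without wild-type CpG library 1 (edgeR adjusted p = 0.114 and 0.144), wild-type CpG library 3 or knockout CpG library 2. Among the 11 cytokine mRNA decay factors N4bp1 was the 1 called gene (9.09%, against 3.92% of all genes). All 11 estimates were positive, with a median of 0.32.

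Fas, the death receptor gene, was at 187, 216 and 200 CPM in wild-type and at 309, 304 and 266 CPM in knockout cells with CpG (log2 0.54, SE 0.12; edgeR adjusted p = 0.0188, and 0.146 without wild-type CpG library 1, with the call also lost without knockout CpG library 1). Cybb, the catalytic subunit of the NADPH oxidase, was at 1050, 1238 and 1141 CPM against 1772, 1783 and 1582 CPM (log2 0.58, SE 0.13; edgeR adjusted p = 0.0189, and 0.146 without wild-type CpG library 1). Without CpG both genes overlapped between the genotypes, with Cybb at 648 to 826 CPM in wild-type and 705 to 849 CPM in knockout cells. The other 8 NADPH oxidase genes were not called.

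The largest rises among CpG-induced genes with at least 5 CPM on average belonged to Tdg-ps, Gm4070, Gbp5, Il12b and Txlnb. Txlnb, a taxilin-family gene, was at 3.15, 5.35 and 1.81 CPM in wild-type and at 14, 13.1 and 10.3 CPM in knockout cells with CpG (log2 1.85, SE 0.34; edgeR adjusted p = 0.00595). Without CpG it was at 0.945 CPM or less in every library. Gm4070, of the very large inducible GTPase family, was at 17.7, 14.1 and 37.8 against 76.5, 163 and 196 CPM (log2 2.65, SE 0.44; edgeR adjusted p = 0.00285). Tdg-ps, a pseudogene of the DNA repair gene Tdg, was at 0.535 CPM or less in wild-type and at 9.62 to 10.7 CPM in knockout libraries with CpG. Its CpG response rested on 11 counts against 0 in wild-type cells, since in the knockout its mean was 9.56 CPM without and 10.4 CPM with CpG (log2 0.12; edgeR adjusted p = 0.865). Tdg-ps and Gm4070 have near-identical copies in the genome, so how shared reads were divided is uncertain, and both differed without CpG too.

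Among genes chosen after their values were seen, Marcksl1, an actin-regulating protein gene, was at 458, 538 and 422 CPM in wild-type and at 904, 1232 and 766 CPM in knockout cells with CpG (log2 1.03, SE 0.16; edgeR adjusted p = 0.00125). Adam17, the protease that sheds TNF from the cell surface, was at 265, 294 and 256 CPM against 559, 835 and 474 CPM (2.29-fold; edgeR adjusted p = 0.00201), and it was also higher without CpG (log2 1.04). Csf1r, the receptor of macrophage colony-stimulating factor, was at 537, 582 and 530 CPM against 916, 945 and 693 CPM (log2 0.63, SE 0.12; edgeR adjusted p = 0.00986, and 0.0642 without wild-type CpG library 1). Csf1r is also a monocyte marker, and the other 20 tested genes of that list, with a median log2 difference over the whole list of -0.01, were not called.

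Stress response genes were the list with the largest share called. Of 22 tested, 5 fell and none rose (22.7% called, against 3.92% of all genes), with a median log2 difference of -0.26. The knockout libraries lay below the wild-type ones for 7 of the 22 and above them for 1, against 10% and 10.3% of all genes. The 5 that fell, Hmox1, Nqo1, Prdx1, Gclm and Srxn1, are known targets of NRF2. The endoplasmic reticulum stress genes Hspa5, Atf4 and Ddit3 had log2 differences of -0.13, -0.08 and 0.09. The heat shock genes Hspa1a, Hspa1b and Dnajb1, not called and overlapping between the genotypes, had -0.87, -1.03 and 0.30. Without CpG 3 of the 22 fell and the median was -0.20. The count with CpG was 3 without wild-type CpG library 1 or 2, without knockout CpG library 1 or without both knockout libraries 1, and 7 with replicate number as a block.

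Prdx1, a peroxidase of the peroxiredoxin family, was at 72.7, 74.4 and 64.2 CPM in wild-type and at 28.6, 19.8 and 38.9 CPM in knockout cells with CpG. The groups did not overlap, and the difference was 2.42-fold (log2 -1.28, SE 0.20; edgeR adjusted p = 0.00154). In cells without CpG the levels were 32.1 to 39.6 and 20.5 to 28.5 CPM (log2 -0.60; edgeR adjusted p = 0.12). Hmox1, the haem oxygenase gene, was at 665, 787 and 882 CPM against 390, 450 and 457 CPM with CpG (log2 -0.85, SE 0.14; edgeR adjusted p = 0.00202) and was lower without CpG too (log2 -1.08). Nqo1, a quinone reductase gene, was at 20, 14.1 and 15.9 CPM against 8.29, 6.42 and 5.86 CPM (log2 -1.28, SE 0.23; edgeR adjusted p = 0.00477).

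Gclm and Srxn1 were not CpG-response genes. Gclm, the regulatory subunit of the enzyme that starts glutathione synthesis, was at 94.1, 90.1 and 62.6 CPM in wild-type and at 40.7, 59.7 and 46.3 CPM in knockout cells with CpG (log2 -0.75; edgeR adjusted p = 0.0197, and 0.105 without wild-type CpG library 1). Srxn1, which restores oxidised peroxiredoxins, was at 61.7, 71.7 and 34.9 against 18.1, 26.4 and 23.7 CPM (log2 -1.30; edgeR adjusted p = 0.0181, and 0.0776 without wild-type CpG library 2). Each of these 2 calls was lost in 4 of 12 fits that left out 1 library. Gclc, the catalytic partner of Gclm, did not pass (log2 -1.12; edgeR adjusted p = 0.0616). Nfe2l2, the gene of NRF2 itself, was at 549, 569 and 485 CPM against 717, 700 and 622 CPM, above in all 3 knockout libraries without passing the test (log2 0.35; edgeR adjusted p = 0.143), and Keap1, its inhibitor, had a log2 difference of -0.03.

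Erythroid marker sums differed between the knockout libraries beside these genes. Hmox1 was at 390 and 457 CPM in knockout libraries 1 and 3, whose erythroid sums were 543 and 6378 CPM. The part of erythroid content in the Hmox1 difference was not tested.

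Spic, a transcription factor gene of haem-handling macrophages, had the largest fall among the CpG-induced genes of at least 5 CPM other than members of the GTPase family below. It was at 13, 15.1 and 22.5 CPM in wild-type and at 0.872, 3.76 and 1.25 CPM in knockout cells with CpG (8.32-fold; log2 -3.06, SE 0.44; edgeR adjusted p = 0.000902). Without CpG it was at 3.16 to 6.89 CPM against 0.264 to 0.586 CPM (log2 -3.64). Cish, a cytokine signalling inhibitor gene, was at 3.9, 5.12 and 7 CPM against 0.262, 1.03 and 1.41 CPM with CpG (log2 -2.53, SE 0.54; edgeR adjusted p = 0.0161, and 0.0757 without wild-type CpG library 3, with the call also lost without knockout CpG library 2). Cish was also lower without CpG (log2 -3.87), and its CpG response was called averaged over genotypes but in neither genotype alone.

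Gvin1 and Gm1966, of the very large interferon-inducible GTPase family, fell the most. Both were also lower without CpG (log2 -6.87 and -5.03). Their CpG response was called averaged over genotypes but in neither genotype alone. For Gvin1 the edgeR adjusted p was 0.275 in wild-type and 0.0533 in knockout cells, and for Gm1966 0.393 and 0.0659. Gvin1 was at 61, 56.7 and 127 CPM in wild-type and at 2.01, 1.44 and 6.57 CPM in knockout cells with CpG (24.5-fold; log2 -4.61, SE 0.58; edgeR adjusted p = 0.000261). Gm1966 was at 281, 204 and 404 CPM against 8.9, 17.4 and 14.9 CPM (21.5-fold; log2 -4.42, SE 0.38; edgeR adjusted p = 8.25e-06). Their family member Gm4070 was higher, as given above. Gm15448, a predicted gene that was also among the lowest, was at 12.9 to 20.8 against 3.68 to 6.83 CPM (log2 -1.81, SE 0.29), and it was lower without CpG too (log2 -2.41). These genes have near-identical copies, and how their shared reads were divided is uncertain.

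CpG-repressed genes that differed were split about evenly, 21 higher and 24 lower. Plekhs1, a pleckstrin-domain gene, was at 1.28, 1.38 and 1.21 CPM in wild-type and at 19.5, 23.1 and 17.2 CPM in knockout cells with CpG (15.3-fold; log2 3.94, SE 0.18; edgeR adjusted p = 2.54e-08). Lpar6, a lysophosphatidic acid receptor gene, was at 6.23, 4.36 and 7.08 against 52.4, 53 and 47.7 CPM (8.68-fold; log2 3.12, SE 0.23; edgeR adjusted p = 1.86e-06). Tspan13, a tetraspanin gene, was at 11.6, 8.72 and 10.3 against 51.2, 47.9 and 31.1 CPM (4.26-fold; log2 2.09, SE 0.20; edgeR adjusted p = 2.51e-05). These 3 genes were also higher without CpG, with log2 differences of 3.78 for Plekhs1, 2.91 for Lpar6 and 1.71 for Tspan13. The CpG response of Plekhs1 was called averaged over genotypes but in neither genotype alone. Nlrp1b, an inflammasome sensor that was also higher and has near-identical copies, was at 3.75, 5.35 and 4.15 against 14.7, 11.2 and 8.76 CPM (log2 1.38, SE 0.26; edgeR adjusted p = 0.00646, and 0.0517 without wild-type CpG library 1). It was higher without CpG too (log2 1.94).

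Of the repressed genes that were lower, Apoe, the lipid carrier apolipoprotein E, was at 73, 75.7 and 94.3 CPM in wild-type and at 12, 18.7 and 15 CPM in knockout cells with CpG (5.3-fold; log2 -2.41, SE 0.26; edgeR adjusted p = 7.85e-05). C5ar2, the second receptor of complement C5a, was at 56.5, 57.1 and 49.4 CPM against 18, 18.8 and 10.87 CPM (3.42-fold; log2 -1.77, SE 0.17; edgeR adjusted p = 2.51e-05). Tmem38a, a channel gene of the endoplasmic reticulum, and the zinc finger gene Zfp874a had log2 differences of -2.12 (SE 0.22) and -2.24 (SE 0.19). Tbxas1, the thromboxane synthase gene, was at 7.88, 7.27 and 9.59 against 3.93, 3.01 and 3.28 CPM (log2 -1.28, SE 0.22; edgeR adjusted p = 0.00385). All of these genes were also lower without CpG, with log2 differences of -2.73 for Apoe, -1.82 for C5ar2, -2.16 for Tmem38a, -1.73 for Zfp874a and -1.02 for Tbxas1. The CpG response of Apoe, C5ar2, Tmem38a and Tbxas1 was called averaged over genotypes but in neither genotype alone.

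The same genes were then read in cells without CpG, in the other 6 libraries. There 513 genes differed between the genotypes (4.75%), 228 higher (2.11%) and 285 lower (2.64%). Of all 423 genes that differed with CpG 292 were also called without it in the same direction, and of the 132 response genes 67. By class these were 16 of the 62 induced genes that were higher, 20 of the 25 induced genes that were lower, 19 of the 21 repressed genes that were higher and 12 of the 24 repressed genes that were lower, and the difference between classes was not tested. One gene was called in opposite directions: Smpdl3b, a phosphodiesterase that restrains TLR signalling, was at 27.6, 29.8 and 30.8 CPM in wild-type against 39.4, 54.1 and 42.5 CPM in knockout cells with CpG, and at 1.1 to 1.71 against 0.335 to 0.791 CPM without. Its call with CpG (log2 0.63, SE 0.16; edgeR adjusted p = 0.0422) was lost in 5 of 12 fits that left out 1 library, with an edgeR adjusted p of up to 0.221 without wild-type CpG library 1.

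Whether the genotype difference itself changed with CpG was tested as an interaction. No gene was called by edgeR (365 of 10802, 3.38%, at an unadjusted p under 0.05). DESeq2 called 3, and edgeR called 13 with animal, taken as genotype and library number, as a block. The labels do not say that libraries of 1 number and genotype share an animal. The 132 response genes were chosen by their difference with CpG, which is a part of the interaction, so their interaction values are a description. The difference with CpG minus that without was a log2 of 0.75 (SE 0.21) for Tnip1, 1.96 (SE 0.64) for Txlnb, 0.56 (SE 0.18) for Cybb and -0.68 (SE 0.28) for Prdx1. In these genes the genotypes lay further apart with CpG. In Tdg-ps, with 0 counts in wild-type cells without CpG, they lay closer (-4.77, SE 1.14). Outside the 132, Cxcl2 had -0.96 (SE 0.21) and Ccl3 -0.85 (SE 0.25), and both had higher estimates in the knockout without CpG. None of the genes named here passed adjustment over all genes in edgeR without the block.

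**Figure D5:**
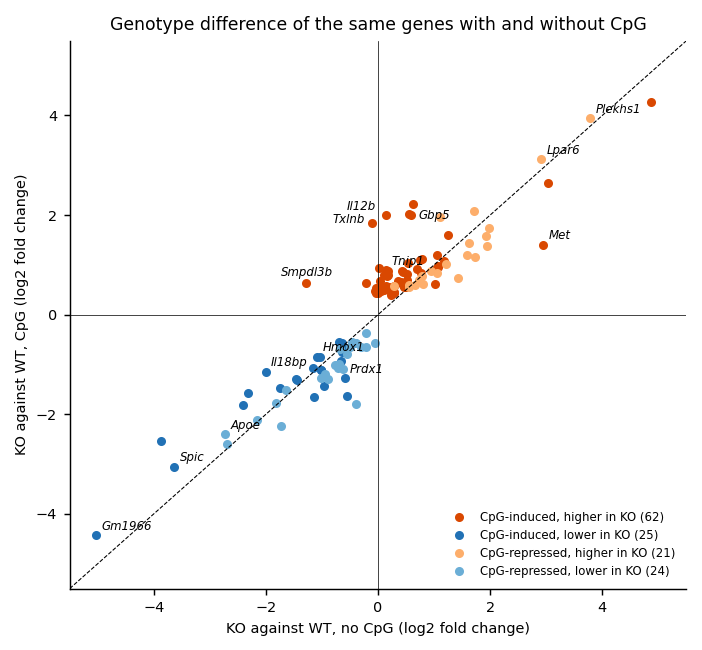
Log2 fold change of knockout against wild-type with CpG, plotted against the same without CpG, for 129 of the 132 response genes (3 lie outside the axes); the dashed line marks equal differences. CpG-repressed genes and induced genes that were lower lie near the line, and many induced genes that were higher, such as Tnip1, lie near 0 on the horizontal axis. Txlnb and Il12b lie there too, but on few counts without CpG: 19 and 23 for Txlnb and 3 and 3 for Il12b in knockout and wild-type cells.

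Exocytosis and granule genes belong to the systems in which Rab27a acts. Of all genes 3.92% were called, and these lists are too short to tell a count of 0 or 1 from that share. None of 17 Rab27 effector and exocytosis genes was called, and their median log2 difference was 0.05. Without CpG 2 of them were called higher in the knockout. None of 15 primary granule genes was called, with Mpo, myeloperoxidase, at 61.6 to 92.8 CPM in wild-type and 18.3, 60.9 and 154 CPM in knockout libraries 1, 2 and 3 with CpG (log2 -0.06, with the sign turned in 5 alternatives). In the secondary and tertiary granule list Cybb was the 1 called gene of 21 (4.76%). Of 39 endolysosomal trafficking genes 1 was called, Lamtor1, which anchors signalling complexes on lysosomes (log2 -0.47, SE 0.12; edgeR adjusted p = 0.0443, lost in 10 of 12 fits that left out 1 library, up to 0.146 without wild-type CpG library 1). The knockout libraries lay below the wild-type ones for 10 of the 39 and above them for 1, against 10% and 10.3% of all genes. The median log2 difference was -0.14, against -0.22 with library size scaling and -0.0023 without wild-type CpG library 2. Lamtor1 was lower without CpG too (log2 -0.56).

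The other lists gave at most 3 calls each, beside the 3.92% called of all genes. Pattern recognition and surface receptor genes (42), MAP kinase feedback and immediate early genes (29), glycolysis genes (25) and antigen presentation genes (24) gave none, with median log2 differences of 0.10, 0.26, 0.12 and 0.29. Cd14, the lipopolysaccharide co-receptor gene, was at 283, 321 and 203 CPM against 273, 453 and 402 CPM (log2 0.48, SE 0.21). Without CpG it was called higher in the knockout (log2 0.95; edgeR adjusted p = 0.0206). Jaml, an adhesion molecule gene outside the CpG response, was at 120, 169 and 103 against 359, 341 and 221 CPM (log2 1.23, SE 0.24; edgeR adjusted p = 0.00882, and 0.0606 without wild-type CpG library 1). It was higher without CpG too (log2 0.92).

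Outside the CpG response 291 of 8935 genes differed (3.26%), 101 higher and 190 lower, and the largest differences of the whole comparison lay there. Trim12a, an antiviral TRIM family gene, was at 269, 236 and 311 CPM in wild-type and at 0.391 CPM or less in knockout cells with CpG. Zbtb44, a zinc finger gene, was at 33, 29.8 and 32.6 CPM against no counts in any knockout library, at least 136-fold lower with a floor of 3 counts per library. Eps8l1 was at 5.25, 9.94 and 22 CPM against 0, 0 and 0.156 CPM. The highest were Trim34b, at 1.95, 1.91 and 0.518 CPM against 61.5, 70.3 and 68.4 CPM, Cd3d, at 4.65, 4.05 and 3.11 CPM against 151, 75.7 and 99.1 CPM, and NCBI gene 118567664, at 0.3 CPM or less against 8.68 to 17.9 CPM. All 6 also differed without CpG, and the TRIM genes have near-identical copies whose shared reads are uncertain.

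The called genes were not spread evenly over the chromosomes. On chromosome 7, 81 of 836 tested genes were called (9.69%), on chromosome 9, which carries Rab27a, 49 of 596 (8.22%) and on chromosome 12, 30 of 369 (8.13%), against 3.92% of all genes. Of the 62 induced genes that were higher, 3 were on chromosome 7, 2 on chromosome 9 and 2 on chromosome 12, with at most 7 on any chromosome. These counts are too small to show whether they were spread otherwise than the called genes, which was not tested. Chromosomes were taken by gene identifier from the RefSeq annotation of GRCm38.p6.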

How the data were processed

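PolyA RNA of 12 libraries was sequenced on an Illumina instrument, per the labels' protocols. The authors deposited read counts per transcript with TPM and FPKM values beside them, per the file headers. The deposited counts are often not whole and were read here to be RSEM's expected counts. TPM and FPKM values were scaled by the authors before deposit and were not used here. The submitters' processing notes list Bowtie2, RSEM 1.2.28 and GRCm39, while filters are not stated there.

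Expected counts (54716 transcripts, 47.4% of values not whole) were summed per NCBI gene and rounded, giving 15986 genes, 15883 of them with a symbol. filterByExpr (smallest count 10, smallest total 15) kept 10802. A model with 1 mean per group was fitted in edgeR 4.0.16 (R 4.3.3) with TMM factors of 0.900 to 1.093 and tested on simulated data. Depth and replicates set the precision: the coefficient of variation between libraries was 17.1%.

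The rule for names took Rab27a, the 8 largest rises and 8 largest falls among called CpG-response genes of at least 5 CPM without overlap, up to 2 called genes per function list, 20 inflammatory and granule genes, and the 3 largest called differences each way outside the response. Other genes were named after their values were seen. The members, lists and rules were chosen with earlier results of these data known.

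Alternatives were library size or relative log expression scaling, DESeq2 1.42.0, no filter or one of 1 CPM, a robust fit, replicate number or animal (genotype and number) as a block, limma 3.58.1 voom, a fit of the 6 libraries, other thresholds and each library left out in turn. The fits without both knockout libraries 1 or both numbered 3 were added after the data were seen.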

Additional observations from a re-analysis of the deposited data

How the results depend on the processing

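In the comparison with CpG, 422 of the 423 called genes were also called by DESeq2, 405 under the replicate block and 384 once both knockout libraries 3 were left out. The counts moved by more than 1.5 times in some settings: to 734 with DESeq2, 253 in a fit of the 6 libraries compared, 233 with a 2-fold minimum, 824 without both knockout libraries 3, and between 234 and 699 when 1 library was left out. The 132 response genes became 267 with DESeq2, 55 when the CpG response had to be called in each genotype, 43 with a 2-fold minimum on the CpG response, 230 without both knockout libraries 3, and 48 to 221 when 1 library was left out. The CpG response of 1867 genes became 3254 with animal as a block and stayed between 1437 and 2040 when 1 library was left out. The comparison without CpG, 513 genes, gave 782 with DESeq2 and 278 to 604 when 1 library was left out. The interaction gave 3 genes with DESeq2, 13 with animal as a block and 0 in each of the 12 fits that left out 1 library. With replicate number as a block the counts were 510 with CpG, 180 response genes, 2021 for the CpG response, 654 without CpG and 0 for the interaction. Residuals of same-numbered wild-type and knockout CpG libraries correlated at -0.010, 0.008 and -0.140, so the numbers were not taken as pairs between genotypes. Same-numbered libraries with and without CpG correlated at 0.279, 0.408 and 0.437 in wild-type and at 0.619, 0.085 and 0.678 in knockout cells, where animal as a block gave the counts above. The cause of these changes was not tested. Scaling moved the median of all genes by less than 0.1 (-0.068 with library size alone). Depth limits the genes of a few counts, such as Il12b without CpG. Small differences turned sign: that of Ccl3 (log2 0.03) was -0.0199 with library size scaling, -0.00161 in limma voom with animal as a block, -0.18 without both knockout libraries 3, and -0.18 to 0.20 when 1 library was left out. That of Mpo (log2 -0.06) was 0.43 without both knockout libraries 1 and -1.01 to 0.40 when 1 library was left out.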
